A study of Mus musculus with 18 samples.

Results

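The comparison described here is that of spleens from irradiated dKO mice, which differed in the marrow they had received. It was read from the authors' deposited table for spleen over all autosomal genes, 20985 of the 21830 genes listed, of which 10749 averaged at least 20 normalized counts over the 10 spleens. The recipients were C57BL/6 mice of the genotype Trex1-/-;Sting1gt/gt, called dKO, and 5 spleens came from recipients of Cgas-/- marrow and 5 from recipients of dKO marrow, all taken 12 weeks after transplantation. These are 10 of the 18 libraries of the series, and the other 8 are untransplanted bone marrow, 4 Cgas-/- and 4 dKO. Both spleen groups share the dKO recipient and its irradiation, so cells that survive irradiation, such as much of the stroma, lack TREX1 and working STING in every spleen. By the labels the groups differ in the graft, and the labels give no measure of how completely it replaced the recipient's blood-forming cells. The labels list separate samples without saying that each is 1 mouse. Every p-value here sets a difference against the scatter among these samples, and part of that scatter may be technical.

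TREX1 is an exonuclease that degrades DNA in the cytosol. Where it is missing, self DNA accumulates, the sensor cGAS makes the messenger cGAMP, and cGAMP binds STING, which switches on type I interferon and NF-kB. cGAMP can pass between cells, so a cell without cGAS can still respond if it carries STING and lies beside a cell that makes the messenger. In these mice the recipient cells can make cGAMP and cannot respond to it, and dKO blood cells are alike in both. Cgas-/- blood cells are the reverse, able to respond and unable to make it. Passage of cGAMP from cell to cell when Trex1 is missing is the subject that the series' title names. All log2 fold changes are spleens with Cgas-/- marrow over spleens with dKO marrow, given with the standard error. A mean for each group was computed from the deposited mean over the 10 spleens and the fold change, on the assumption that both groups weigh the same, and is called an implied mean.

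The table holds no value per library, so sequencing depth is unknown and samples cannot be shown one by one. In the authors' deposited table for spleen the median standard error was 0.138 on the log2 scale for autosomal genes with a mean of at least 20 and 0.835 below it. The median log2 fold change of the 10749 genes was 0.01, and 51.9% of them were above 0. The suspension was rich in B cell transcripts, with a mean of 3742 normalized counts for Cd79b and 3476 for Ms4a1 in the authors' deposited table. Markers of splenic stroma were scarce, with a mean of at least 20 for 4 of 30. All 5 measured genes of the Y chromosome were lower with Cgas-/- marrow, between -5.38 and -4.76 in the authors' deposited table, and all 5 were called at an adjusted p under 0.05 by DESeq2. Xist, the RNA of the inactive X chromosome, was at 0.45 ± 0.126 there (adjusted p = 0.192 by DESeq2). The sex of donors and recipients is not in the labels, and its part in the autosomal differences was not tested.

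The targeted genes separated the groups. Trex1 was 6.55-fold higher in spleens with Cgas-/- marrow, at 2.71 ± 0.199 (log2) in the authors' deposited table (adjusted p = 8.48e-39 by DESeq2), and its implied mean was 144 normalized counts against 22. Cgas, listed under its older symbol Mb21d1, fell 1.89-fold, to -0.92 ± 0.217, in the authors' deposited table (adjusted p = 0.0176 by DESeq2), with implied means of 44.3 and 83.9. Sting1, listed as Tmem173, was at -0.02 ± 0.0751 in the authors' deposited table (mean 812 normalized counts). The Sting1gt allele is a point mutation, so this level checks nothing. The method reads 3' ends, and a knock-out allele can still give tags from whatever stretch it keeps, which limits what the remaining counts say. On GRCm38 Trex1 lies on chromosome 9 at 109057933 to 109059734 and Cgas at 78430526 to 78443237, 30.6 Mb apart.

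Across the autosomes, 24 genes were called at an adjusted p under 0.05 by DESeq2 in the authors' deposited table, 0.114% of those tested. They were 12 higher with Cgas-/- marrow (0.0572%) and 12 lower (0.0572%). Of the 24, 16 lie within 10 Mb of Trex1, Cgas is another, and 7 lie elsewhere, 1 of these higher and 6 lower. Where the deposited Wald score was read against a t distribution with 8 degrees of freedom instead of the normal one, 9 of the 24 stayed below 0.05, namely Rpl29, Cpne4, Col6a4, Aldh1a3, Trex1, Tma7, Shisa5, Wdfy1 and Nudt16. At an unadjusted p under 0.05 in the authors' deposited table, 248 autosomal genes were higher (1.18%) and 390 lower (1.86%). Among genes with a mean of at least 20 the order turned, with 219 higher (2.04%) and 169 lower (1.57%).

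**Figure D1:**
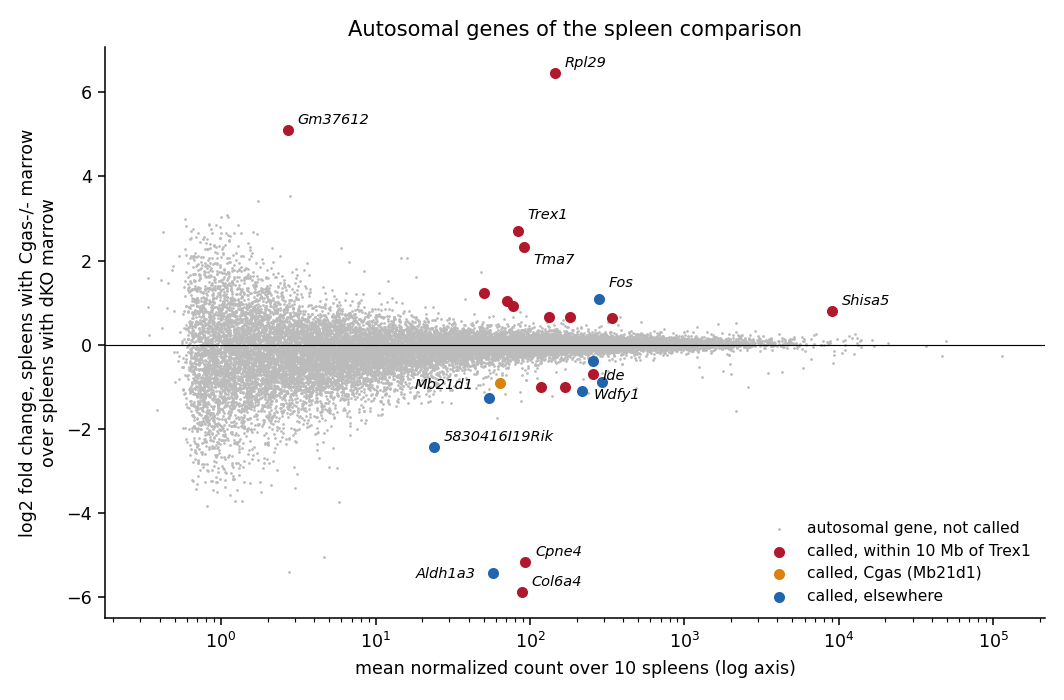
Log2 fold change (vertical axis, spleens with Cgas-/- marrow over spleens with dKO marrow) against the mean normalized count over 10 spleens (horizontal log axis) for 20985 autosomal genes of the authors' deposited table. The 24 called genes (adjusted p under 0.05 by DESeq2) are coloured by place, and 16 of them (red) lie within 10 Mb of Trex1.

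Near Trex1 the differences ran in both directions. The window of 10 Mb on each side holds 265 measured genes, 6.04% of them called, 11 higher and 5 lower, against 0.0355% of the 19721 genes off chromosome 9. Among the 142 genes of the window with a mean of at least 20, 27 had an unadjusted p under 0.05, and off chromosome 9 the share was 3.41%. The rest of chromosome 9, outside the windows of Trex1 and Cgas, held 836 genes and no call, and of its 419 genes with a mean of at least 20, 15 had an unadjusted p under 0.05 by the DESeq2 test (3.58%). The called genes reached from 5.57 Mb before Trex1 to 2.21 Mb after it. Most neighbours were not called, and the median log2 fold change of the window was 0.02.

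**Figure D2:**
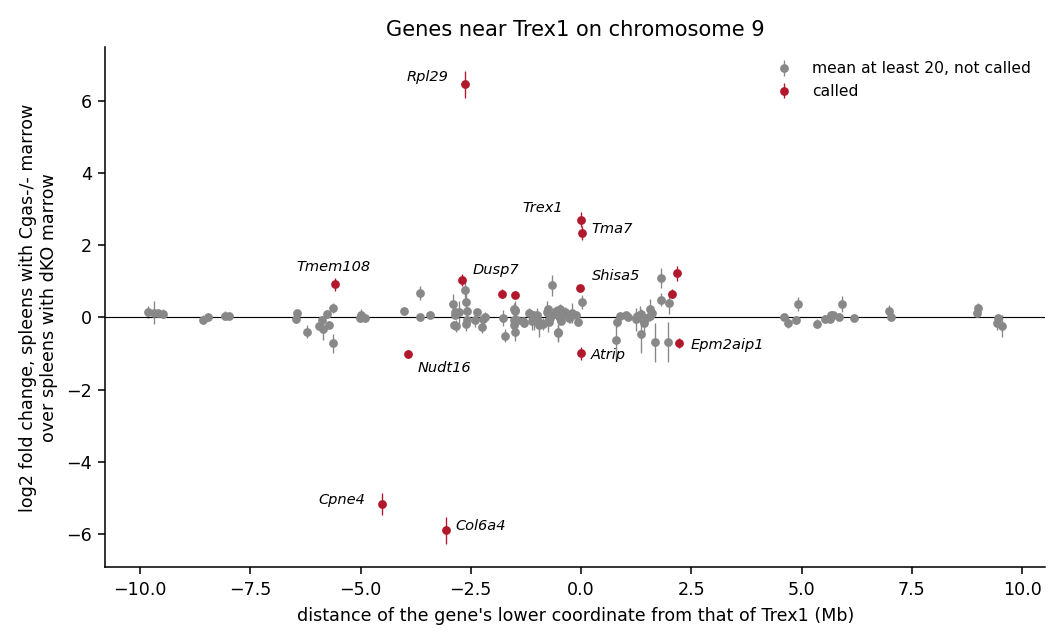
Log2 fold change with standard error (vertical axis) of the 142 genes within 10 Mb of Trex1 that had a mean normalized count of at least 20, by distance of the gene's lower coordinate from that of Trex1 (horizontal axis, Mb). Called genes (red) lie between 5.57 Mb before and 2.21 Mb after Trex1 and fall on both sides of 0.

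The genes that touch Trex1 moved apart from each other. Shisa5, which encodes a membrane protein of the endoplasmic reticulum linked to p53-dependent cell death, ends 0.156 kb from Trex1 and rose 1.76-fold (0.81 ± 0.0746 in the authors' deposited table, adjusted p = 4.78e-24 by DESeq2). It was the most abundant of the called genes, with implied means of 11523 and 6565. Atrip, which encodes the partner of the checkpoint kinase ATR, shares its strand and its annotated lower end with Trex1 and fell (-0.998 ± 0.170 in the authors' deposited table, adjusted p = 4.64e-06 by DESeq2). Its implied mean was 78.3 with Cgas-/- marrow and 156 with dKO marrow, the reverse of Trex1. Reads of the overlapping part cannot be told apart between Trex1 and Atrip where the counting rule is unknown. Tma7, a gene of the translation machinery that lies 0.444 kb from Atrip, rose 5.03-fold to an implied mean of 152 from 30.3 (2.33 ± 0.191 in the authors' deposited table). In untransplanted bone marrow, where its mean was 2244 normalized counts, Tma7 was at -0.19 ± 0.0830 in the authors' deposited table (adjusted p = 0.438 by DESeq2).

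Farther out, some differences were close to present against absent. Rpl29, a protein of the large ribosomal subunit, had implied means of 285 with Cgas-/- marrow and 3.25 with dKO marrow (6.45 ± 0.373 in the authors' deposited table). Col6a4, a collagen VI chain, went the other way with 2.93 against 174 (-5.89 ± 0.374 in the authors' deposited table), and so did Cpne4, which encodes a calcium-dependent membrane-binding protein, with 5.07 against 182 (-5.16 ± 0.311 in the authors' deposited table). Such folds rest on a group with few counts, so their size is not well fixed. Gm37612, an RNA within an intron with a mean of 2.70 in the authors' deposited table, was called as well, and no fold is given for it. Ribosomal protein genes have many near-identical copies, so the level of Rpl29 is uncertain. In untransplanted bone marrow Rpl29 was at 2.05 ± 0.0874 with a mean of 1568 normalized counts in the authors' deposited table. Its near absence with dKO marrow is thus a reading of the spleen comparison only.

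On the far side of Trex1, Epm2aip1, which encodes a partner of laforin, fell 1.63-fold (-0.71 ± 0.129 in the authors' deposited table, implied means 195 and 319). Lrrfip2, nearer to Trex1 on the same side, rose 1.57-fold (0.66 ± 0.128 in the authors' deposited table).

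The other called genes near Trex1 also moved in both directions. Dusp7, a phosphatase that switches off ERK, rose 2.07-fold (1.05 ± 0.169 in the authors' deposited table), and Mapkapk3, a kinase activated by p38, rose 1.58-fold (0.66 ± 0.117 in the authors' deposited table). Rassf1, a Ras-association tumour suppressor, rose 1.55-fold (0.63 ± 0.108 in the authors' deposited table, implied means 412 and 265). Tmem108, a transmembrane protein gene, was the farthest called gene before Trex1 and rose 1.89-fold. Nudt16, which encodes a nucleotide hydrolase, fell 2.03-fold (-1.02 ± 0.114 in the authors' deposited table).

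Of the 7 called genes that lie outside both windows, the 1 that rose was Fos, described with its family further on. Aldh1a3, an enzyme that makes retinoic acid, fell from an implied mean of 113 with dKO marrow to 2.63 with Cgas-/- marrow (-5.42 ± 0.395 in the authors' deposited table, chromosome 7, 66390890 to 66427517). Wdfy1, which encodes an adaptor of endosomal Toll-like receptors, fell 2.14-fold (-1.10 ± 0.120 in the authors' deposited table, implied means 139 and 297, chromosome 1, 79702262 to 79776143). Slc15a2, a peptide transporter gene, fell 2.41-fold (-1.27 ± 0.191 in the authors' deposited table, implied means 31.9 and 77.0, chromosome 16, 36750177 to 36784962). Ide, the insulin-degrading enzyme, fell 1.31-fold, the smallest called change (-0.39 ± 0.0941 in the authors' deposited table, adjusted p = 0.0317 by DESeq2, chromosome 19, 37268743 to 37337852). The remaining called pair lies together on chromosome 5, 76.1 kb apart. Rell1, a membrane protein related to a TNF receptor, fell 1.86-fold (-0.89 ± 0.126 in the authors' deposited table, 63908897 to 63968897). The noncoding RNA 5830416I19Rik fell 5.38-fold (-2.43 ± 0.328 in the authors' deposited table, 64044978 to 64050228).

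None of these 6 loci carried a run of called genes as the region of Trex1 did. Within 2 Mb of Aldh1a3, 0 of 16 other genes with a mean of at least 20 were called and 0 had an unadjusted p under 0.05 by the DESeq2 test. The same windows held 0 called genes of 12 for Wdfy1, 0 of 34 for Slc15a2, 0 of 18 for Ide and 0 of 53 for Fos, each with 1 or 2 at an unadjusted p under 0.05. For Rell1 it was 1 of 25, the noncoding RNA beside it. Aldh1a3 and Wdfy1 also passed the DESeq2 test in untransplanted marrow, at -2.86 ± 0.267 and -1.48 ± 0.145 in what the authors' deposited table gives for bone marrow, and so did Rell1 at -0.32 ± 0.0813.

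Below the threshold, the genes next in order were led by the Fos relatives among those with higher values. By DESeq2, Junb, Egr1, Jun and Dusp2 had adjusted p-values from 0.0613 to 0.0937 in the authors' deposited table, and were followed by Tmie on chromosome 9 (1.09 ± 0.289) and Map3k8, a kinase upstream of ERK (0.46 ± 0.131). On the lower side no gene came near, and Dusp3, Ckap4, Ptprm, Mapk12 and Hemk1 lay between -1.10 and -0.45 in the authors' deposited table, with adjusted p-values from 0.675 to 0.958 by DESeq2.

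Immediate early genes, whose transcription starts within minutes of a stimulus and also when tissue is taken apart, had higher values with Cgas-/- marrow almost without exception. Of 29 measured, 28 were above 0, with a median of 0.29 against -0.03 for all autosomal genes. Of the 29, 28 had a mean of at least 20, and their median was 0.31 against 0.01 for all autosomal genes at such means. By the authors' deposited table, 16 had an unadjusted p under 0.05 and higher values, none with lower values, and 1 passed the DESeq2 test over all genes. The share with higher values was 1.18% of autosomal genes and 2.04% of those with a mean of at least 20. Among the 7 AP-1 subunit genes, which encode partners of 1 dimeric transcription factor, the median was 0.50. Fos rose 2.12-fold from an implied mean of 180 to 381 (1.09 ± 0.158 in the authors' deposited table, adjusted p = 8.30e-09 by DESeq2), and with the t distribution its adjusted p was 0.184, while every other alternative run left it below 0.05. Junb had implied means of 2541 and 1791 (0.50 ± 0.128 in the authors' deposited table, adjusted p = 0.0613 by DESeq2), and Jun 470 and 299 (0.65 ± 0.170 in the authors' deposited table, adjusted p = 0.0825 by DESeq2). Fosb was at 0.89 ± 0.348 and Jund at 0.29 ± 0.139 in the authors' deposited table, and neither passed.

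Other branches of the early response had the same sign. Egr1, a zinc finger factor of the growth response, was at 0.53 ± 0.135 in the authors' deposited table (adjusted p = 0.0652 by DESeq2), with Egr3 at 0.43 ± 0.149 and Egr2 at 0.32 ± 0.202. The 7 genes grouped here as feedback regulators were all above 0 with a median of 0.32. Among them Ppp1r15a, which restores translation after stress, was at 0.58 ± 0.176 and Dusp1, a phosphatase of p38 and JNK, at 0.53 ± 0.253 in the authors' deposited table. Zfp36, which destabilises cytokine mRNA, was at 0.42 ± 0.136 and Dusp2, a phosphatase of ERK, at 0.32 ± 0.0851 in the authors' deposited table. The Nr4a receptors had the lowest values of these branches, with a median of 0.03 over the 3 genes. None of the genes in this paragraph passed the DESeq2 test over all genes.

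The start regions of 3 of these genes are printed because they hold the motifs through which calcium, cAMP and growth factor signals act on early genes. They are 250 bases before the RefSeq start on GRCm38.p6, on the strand of the gene. Capitals mark TGACG, a site of CREB and AP-1 family factors, for Fos (chr12:85473640-85473889, plus strand), the full site TGACGTCA for Dusp1 (chr17:26508473-26508722, minus strand) and a CArG box, the site of serum response factor, for Zfp36 (chr7:28379229-28379478, minus strand).
Fos: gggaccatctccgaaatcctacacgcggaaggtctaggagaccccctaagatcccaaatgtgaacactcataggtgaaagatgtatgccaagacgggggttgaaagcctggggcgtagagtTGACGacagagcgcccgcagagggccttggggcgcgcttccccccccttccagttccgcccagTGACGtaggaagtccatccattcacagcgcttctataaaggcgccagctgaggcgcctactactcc
Dusp1: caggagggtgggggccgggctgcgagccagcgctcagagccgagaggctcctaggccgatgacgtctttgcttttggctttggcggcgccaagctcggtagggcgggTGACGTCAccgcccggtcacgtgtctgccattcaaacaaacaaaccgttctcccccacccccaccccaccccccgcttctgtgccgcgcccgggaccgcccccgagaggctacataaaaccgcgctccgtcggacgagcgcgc
Zfp36: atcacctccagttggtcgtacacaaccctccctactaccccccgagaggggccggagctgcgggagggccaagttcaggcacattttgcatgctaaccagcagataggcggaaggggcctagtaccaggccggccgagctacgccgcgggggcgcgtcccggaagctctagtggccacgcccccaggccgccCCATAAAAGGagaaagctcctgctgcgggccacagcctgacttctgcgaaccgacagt
The first capital lies 129 and 66 bases before the start in Fos, 143 before it in Dusp1 and 58 before it in Zfp36. RefSeq windows from 250 bases before to 50 after the start were found for 23 of the 29 immediate early genes, 27 windows in all, and both strands were searched. TGACG stood in 59.3% of them, against 20.8% of all 32851 windows. It also stood in 61.9% of MHC class I windows and in 45.0% of heat shock windows. TGACGTCA, which contains TGACG, stood in 11.1% against 1.79%, and a CArG box in 18.5% against 1.63%. A match is a description of the letters and no evidence of binding.

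Heat shock genes, another response of stressed or dissociated cells, had values on the other side of 0 from the immediate early genes. Of 19 measured, 2 were above 0, the median was -0.18, and none had an unadjusted p under 0.05 with DESeq2 in the authors' deposited table. The lowest were the inducible HSP70 genes Hspa1b at -0.85 ± 1.06 and Hspa1a at -0.74 ± 1.03 in the authors' deposited table, whose errors exceed their values. Hsp90aa1, the inducible HSP90, was at -0.37 ± 0.330 and Bag3, a cochaperone, at -0.34 ± 0.194 in the authors' deposited table. RNA came from cell suspensions, and the part that handling of the tissue had in either group of genes was not tested.

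Interferon-stimulated genes, the main readout of STING signalling, were slightly above 0 as a group, and no member passed the DESeq2 test. Of 76 measured, 58 were above 0, with a median of 0.09 against -0.03 for all autosomal genes. Of the 76, 68 had a mean of at least 20, and their median was 0.09 against 0.01 for all autosomal genes at such means. By the authors' deposited table, 4 had an unadjusted p under 0.05 and higher values and 1 had lower values. Among autosomal genes with a mean of at least 20 these shares were 2.04% and 1.57%. The 95% normal interval lay between -1 and 1 on the log2 scale for 70 of the 76. For all autosomal genes with a mean of at least 20 this held for 95.5%.

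By family, the 5 Ifit genes, whose proteins bind foreign RNA, were all above 0, from 0.13 to 0.69, with a median of 0.21. Ifit3b led them at 0.69 ± 0.310 in the authors' deposited table (implied means 71.6 and 44.4), with Ifit3 at 0.42 ± 0.357 there. Of the 7 oligoadenylate synthetase genes, which activate RNase L, 5 were above 0, with a median of 0.17, and Oasl2 was at 0.33 ± 0.223 in the authors' deposited table. Of the ISG15 system, a ubiquitin-like modifier with its enzymes, 4 of 5 were above 0, and Isg15 itself was at 0.36 ± 0.226 in the authors' deposited table. The 4 transcription factors of the pathway ranged from 0.00 to 0.31, with Irf7 at 0.31 ± 0.271 and Irf9 at 0.00 ± 0.111 in the authors' deposited table. Zbp1, a sensor of Z-form nucleic acid, had the smallest unadjusted p of the list at 0.39 ± 0.151 in the authors' deposited table, and Ifi204, a DNA sensor of the PYHIN family, was at 0.44 ± 0.218. The PARP genes were nearest to 0, with a median of 0.01, and Parp14 was at -0.24 ± 0.106 in the authors' deposited table. The most abundant members, Ly6e and Sp100, were at 0.00 ± 0.128 and 0.15 ± 0.0823 in the authors' deposited table. Rsad2, which encodes viperin, was below 0 at -0.31 ± 0.345 in the authors' deposited table.

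The window before Ifit3b is shown as that of the Ifit gene with the highest log2 fold change. It runs over chr19:34607707-34607956 on the plus strand of GRCm38.p6 (RefSeq), and capitals mark the interferon-stimulated response element, GAAANNGAAA, here read on the opposite strand, 188 and 154 bases before the start.
Ifit3b: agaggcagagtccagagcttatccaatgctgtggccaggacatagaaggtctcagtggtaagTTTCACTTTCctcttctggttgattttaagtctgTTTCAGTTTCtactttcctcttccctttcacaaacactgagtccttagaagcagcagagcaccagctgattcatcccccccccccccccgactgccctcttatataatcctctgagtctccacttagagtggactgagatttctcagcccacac
This motif stood in 28 of 72 windows of interferon-stimulated genes (38.9%), in 12 of 17 of interferon-gamma-induced genes (70.6%) and in 3.44% of all 32851 windows.

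Groups that interferon-gamma or NF-kB control were also near 0. Of 24 interferon-gamma-induced genes 15 were above 0 (median 0.04). Irgm1, a GTPase that guards vacuoles against pathogens, was at 0.38 ± 0.136 in the authors' deposited table, while the chemokine gene Cxcl9 was at -0.41 ± 0.234. Of 23 NF-kB targets 14 were above 0 (median 0.05), with Tnfaip3, which encodes the inhibitor A20, at 0.34 ± 0.165 and Nfkbia, which encodes the inhibitor I kappa B alpha, at 0.12 ± 0.0538 in the authors' deposited table. Il1b was at 0.22 ± 0.176 there. Of 23 genes of the cGAS and STING pathway 9 were above 0 (median -0.02), and Trex1 and Cgas were the called ones.

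Genes of MHC class I and of peptide loading, which interferons raise, had 19 of 23 members above 0 and a median of 0.07. By the authors' deposited table, 3 had an unadjusted p under 0.05, all with higher values (2.04% of autosomal genes with a mean of at least 20), and none passed the DESeq2 test. H2-T22 was at 0.40 ± 0.153 and H2-Q7 at 0.20 ± 0.102 in the authors' deposited table, both from a family of near-identical genes whose reads may be split. The abundant B2m and H2-K1 were at 0.15 ± 0.0842 and 0.10 ± 0.0724 there. Tap2, the peptide transporter, was at 0.49 ± 0.313 in the authors' deposited table, an error 3.81 times that of genes at a like level. MHC class II genes, with means up to 13192 for H2-Aa in the authors' deposited table, lay between -0.15 and 0.09, with 9 of 13 above 0 and a median of 0.04.

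**Figure D3:**
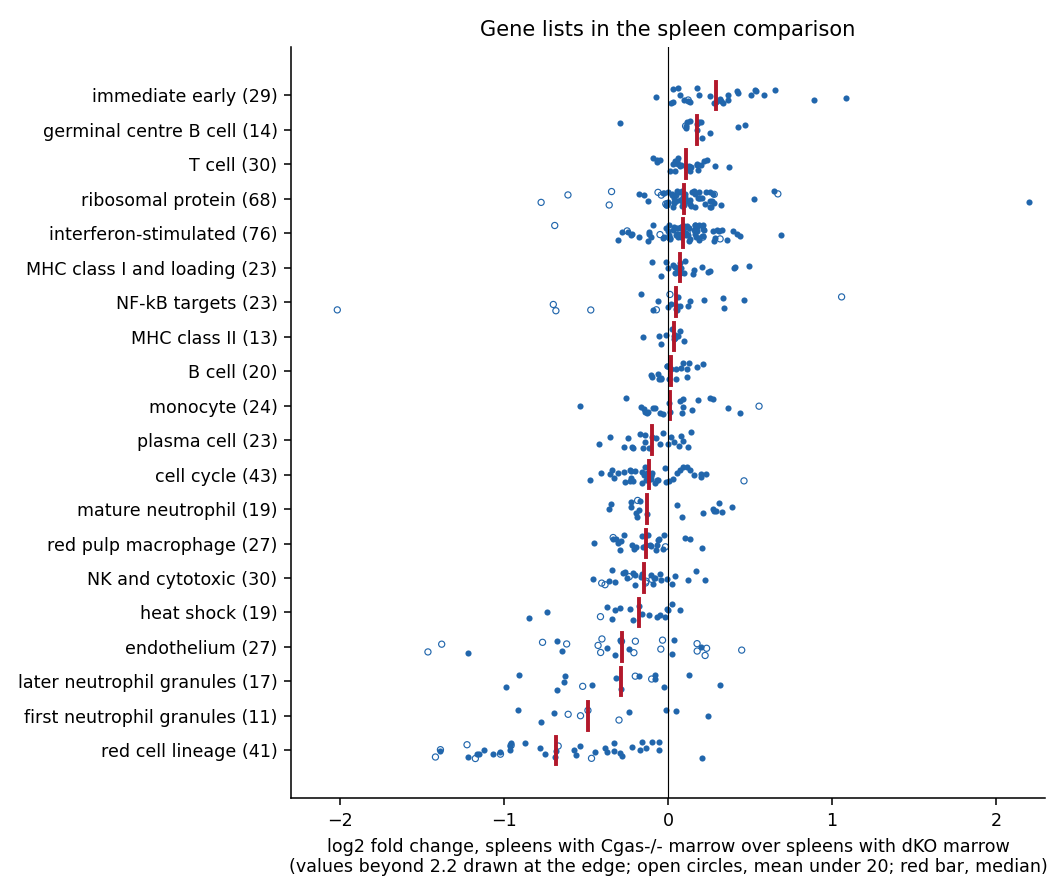
Log2 fold change (horizontal axis, spleens with Cgas-/- marrow over spleens with dKO marrow) of the members of 20 gene lists, 1 point per measured autosomal gene, with the number measured in brackets and the median as a red bar. Immediate early genes have the highest median (0.29) and red cell genes the lowest (-0.68), and open circles are genes with a mean under 20.

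Red cell lineage genes lay below 0 as a group, although none passed the DESeq2 test. The mouse spleen makes red cells beside the marrow, above all under stress, and its red pulp clears old ones. Of 41 measured genes 40 were below 0, with a median of -0.68. By the authors' deposited table, 5 had an unadjusted p under 0.05, all with lower values (1.86% of autosomal genes). The 4 adult globin genes lay between -0.69 and -0.45, and their implied means summed to 16695 with Cgas-/- marrow and 24335 with dKO marrow. Hba-a1 was at -0.68 ± 0.355 and Hbb-bs at -0.45 ± 0.328 in the authors' deposited table. The 12 membrane and skeleton genes were all below 0 with a median of -1.07, among them Rhag (-1.39 ± 0.615) and Slc4a1, the anion exchanger band 3 (-1.13 ± 0.724), in the authors' deposited table. The transcription factors were below 0 too, with Klf1, the erythroid Krüppel-like factor, at implied means of 17.0 and 44.7 and Tal1 at -0.97 ± 0.581 in the authors' deposited table. Genes of heme synthesis and iron import lay nearer to 0, with a median of -0.29, and had smaller errors, as in the mitochondrial iron importer Slc25a37 (-0.28 ± 0.0998) and the transferrin receptor Tfrc (-0.39 ± 0.188) in the authors' deposited table. In bulk RNA, fewer cells of a type and less RNA per cell cannot be told apart.

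The window of Hba-a1 is shown with the GATA motif of erythroid genes in capitals, 183 bases before the start (chr11:32283422-32283671, plus strand, GRCm38.p6, RefSeq).
Hba-a1: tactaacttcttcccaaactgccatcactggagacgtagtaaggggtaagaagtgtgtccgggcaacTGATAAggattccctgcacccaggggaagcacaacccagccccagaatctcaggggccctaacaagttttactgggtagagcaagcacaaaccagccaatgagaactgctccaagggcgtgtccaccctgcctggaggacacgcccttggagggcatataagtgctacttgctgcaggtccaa
TGATAA or AGATAA stood in 17 of 38 windows of red cell genes (44.7%) and in 18.6% of all 32851 windows, in 9 of 72 of interferon-stimulated genes (12.5%) and in 6 of 17 of interferon-gamma-induced genes (35.3%).

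The errors of the red cell genes were wide for their level. For each gene with a mean of at least 20, the standard error was divided by the running median of the autosomal genes nearest in mean level, a description chosen after values were seen. The ratio was above 2 for 2.26% of the 10749 genes. It was above 2 for 17 of 33 red cell genes (51.5%), with a median of 2.53, and reached 6.15 in Car2, a carbonic anhydrase. The same held for 8 of 14 genes of later neutrophil granules (57.1%), 9 of 18 heat shock genes and 10 of 25 markers of red pulp macrophages (40.0%). Immediate early genes had 1 of 28 and T cell genes 0 of 30. A high ratio means more spread within the groups than is usual at that level, and which spleens carried it cannot be read from the table.

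**Figure D4:**
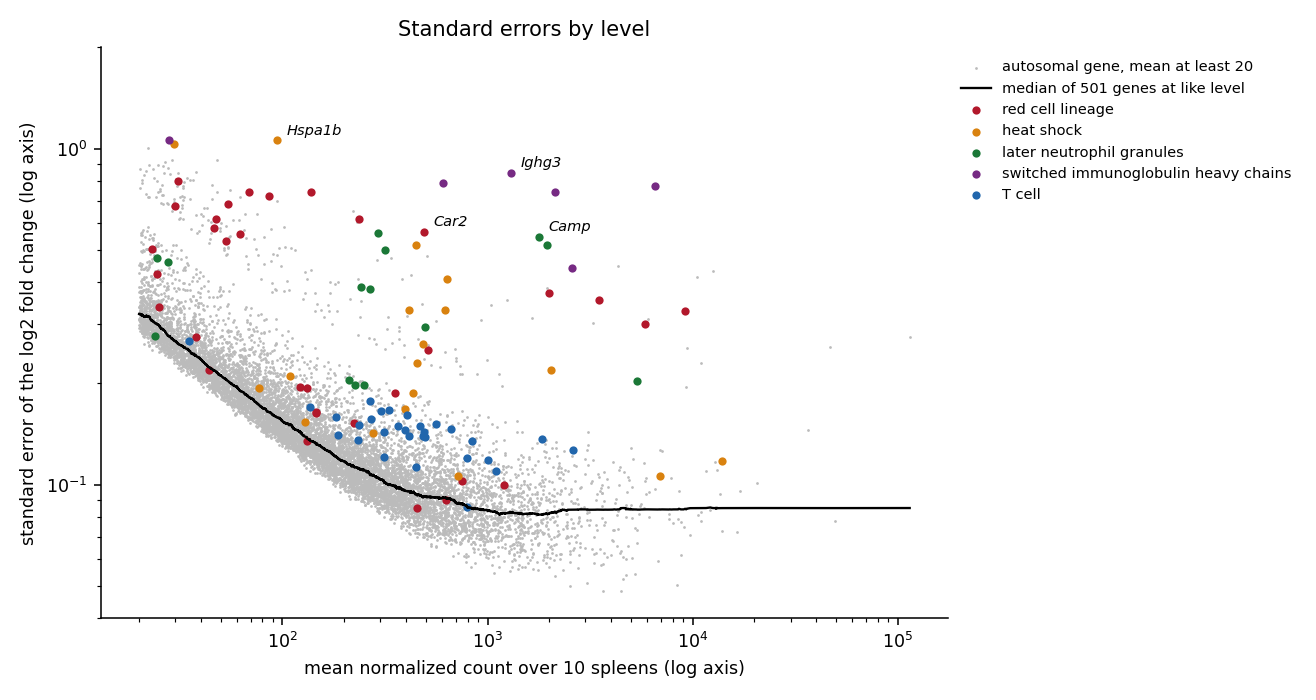
Standard error of the log2 fold change (vertical log axis) against the mean normalized count over 10 spleens (horizontal log axis) for 10749 autosomal genes of the authors' deposited table, with the running median in black. The switched immunoglobulin genes lie above the line by ratios of at least 3.84, and 17 of 33 red cell, 9 of 18 heat shock and 8 of 14 later neutrophil granule genes by more than 2, while no T cell gene does.

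The 4 highest ratios were those of Ighg3, Igha, Ighg2c and Ighg1, class-switched immunoglobulin heavy chains, which plasma cells make in great amounts. The ratio was between 3.84 and 10.3 for all 6 switched constant genes. In the authors' deposited table Ighg2c was at -1.58 ± 0.743, Ighg2b at -1.01 ± 0.441 and Ighg3 at -0.78 ± 0.848. Ighg1 was at 0.11 ± 0.787 and Igha at -0.33 ± 0.775 in the authors' deposited table, and none passed the DESeq2 test. By implied means Ighg2c was at 1074 with Cgas-/- marrow and 3213 with dKO marrow. The unswitched Ighm and Ighd were at -0.04 ± 0.145 and -0.01 ± 0.0984 in the authors' deposited table. Genes of liver secretion varied as well, with Alb, serum albumin, at -0.83 ± 0.650 in the authors' deposited table and a ratio of 5.71. These genes were chosen after their values were seen.

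Other lineages of the marrow had medians nearer to 0. Genes of the first neutrophil granules were below 0 in 9 of 11 (median -0.49, and -0.24 over the 7 with a mean of at least 20), with Elane, neutrophil elastase, at -0.91 ± 0.453 and Mpo, myeloperoxidase, at -0.78 ± 0.499 in the authors' deposited table. Genes of later granules were below 0 in 15 of 17 (median -0.29), with Cd177 at -0.99 ± 0.474 and Camp, cathelicidin, at -0.63 ± 0.545 in the authors' deposited table. Camp, Ngp and Ltf of this list lie within 10 Mb of Trex1. Mature neutrophil genes were split, 9 above and 10 below 0 (median -0.13, and -0.04 over the 18 with a mean of at least 20), and the abundant S100a8 was at -0.22 ± 0.432 in the authors' deposited table. Among stem and progenitor genes 15 of 19 were below 0 (median -0.07), and Meis1, a factor of stem cells, was at -1.14 ± 0.438 with a mean of 14.6 in the authors' deposited table. Of 19 basophil, eosinophil and mast cell genes 2 had an unadjusted p under 0.05 and lower values (1.86% of autosomal genes), Mcpt8, a basophil protease (-1.02 ± 0.360), and Prg2, the eosinophil major basic protein (-0.66 ± 0.238), in the authors' deposited table. None of these genes passed the DESeq2 test over all genes.

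Markers of red pulp macrophages, which take up old red cells and recycle their iron, were below 0 in 24 of 27 (median -0.14), none with an unadjusted p under 0.05 in the authors' deposited table. Spic, the factor that specifies them, was at -0.21 ± 0.229 and Vcam1 at -0.11 ± 0.343 in the authors' deposited table. Of 23 genes of iron and heme handling 16 were below 0 (median -0.10). Monocyte genes were centred on 0.01, with 13 of 24 above 0, and dendritic cell genes on 0.03, with 14 of 24. Among the latter Fscn1, which migrating dendritic cells express, was at 0.35 ± 0.162 in the authors' deposited table. Genes of plasmacytoid dendritic cells, a main source of type I interferon, had 6 of 16 above 0 (median -0.16), and the 13 with a mean of at least 20 had a median of -0.06.

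Lists of lymphocyte genes had medians between -0.15 and 0.17. T cell genes were above 0 in 26 of 30 (median 0.11), and for all 30 the 95% interval lay between -1 and 1. Fewer germinal centre genes (11 of 14) and NK genes (26 of 30) had such an interval. Cd3g, a chain of the T cell receptor complex, was at 0.37 ± 0.150 and Trac at 0.29 ± 0.135 in the authors' deposited table, the 2 with an unadjusted p under 0.05 (2.04% of autosomal genes with a mean of at least 20 in this direction). B cell genes were centred on 0.02 with 12 of 20 above 0, and Cd72, an inhibitory coreceptor, was at 0.21 ± 0.0704 in the authors' deposited table. Marginal zone B cell genes had a median of 0.08, with Cd1d1 at 0.27 ± 0.117 in the authors' deposited table, and follicular B cell genes 0.04, with Fcer2a, the receptor CD23, at -0.21 ± 0.0893. Germinal centre genes were above 0 in 13 of 14 (median 0.17), with Bcl6 at 0.13 ± 0.0748 and Rgs13 at 0.47 ± 0.355 in the authors' deposited table. Plasma cell genes were below 0 in 15 of 23 (median -0.10), and Prdm1, which encodes the plasma cell factor BLIMP1, was at -0.42 ± 0.154 in the authors' deposited table. NK and cytotoxic genes were below 0 in 25 of 30 (median -0.15), with Klrb1c, the NK1.1 receptor, at -0.34 ± 0.130 in the authors' deposited table. No gene of these lists passed the DESeq2 test over all genes.

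Most markers of endothelium and stroma averaged under 20 normalized counts, and how many blood cells of the recipient remained is not known. Endothelial genes were below 0 in 19 of 27 (median -0.28), and 10 of the 27 had a mean of at least 20. Fabp4, a fatty acid carrier of capillaries, was at -0.68 ± 0.241 and Kdr, a VEGF receptor, at -0.65 ± 0.303 in the authors' deposited table. Stroma genes were below 0 in 19 of 30 (median -0.18, and 0.02 over the 4 with a mean of at least 20). These 4 were Cr2, Vim, Clu and Sparc. The most abundant, Cr2, is also in the B cell and marginal zone B cell lists (mean 5789, -0.10 ± 0.116 in the authors' deposited table). The median of the 4 is therefore a poor reading of stroma. A 95% interval between -1 and 1 on the log2 scale held for 5 of the 30, and 1 had an unadjusted p under 0.05, with a higher value (1.18% of autosomal genes).

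Among housekeeping groups, ribosomal protein genes were above 0 in 50 of 68 (median 0.09), with 11 at an unadjusted p under 0.05, all with higher values, in the authors' deposited table (2.04% of autosomal genes with a mean of at least 20). Rps27 was at 0.65 ± 0.223 and Rps12 at 0.52 ± 0.161 in the authors' deposited table, and Rpl29 was the called member. Mean levels of this list ranged from 1.41 to 13919 normalized counts in the authors' deposited table for spleen, with 10 of 68 under 20, and from 1568 to 23998 for bone marrow. The files were normalized separately, and the cause of the low spleen levels was not tested. Cell cycle genes were below 0 in 31 of 43 (median -0.12), and Tpx2, a spindle gene, was at -0.47 ± 0.236 in the authors' deposited table. Genes of oxidative phosphorylation (median 0.04), cholesterol synthesis (0.00) and the unfolded protein response (-0.01) were centred near 0. So were glycolysis and hypoxia genes (0.02), of which Eno1 was at -0.45 ± 0.156 in the authors' deposited table, and p53 targets (0.08).

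Whether the same donor genotypes differ alike without transplantation was asked by subtracting the bone marrow from the spleen log2 fold change, for 13379 autosomal genes listed for both. The 2 comparisons share no library. By a two-sided normal test with Benjamini-Hochberg adjustment, 8 genes differed (0.0598%), 6 higher and 2 lower in spleen. Of 23 called spleen genes listed in both, 20 had the same sign in bone marrow and 12 were also called there. Of all 13379 genes, 65 were called in bone marrow, and the share with the same sign in both tissues was not computed. Most of the 23 lie within 10 Mb of Trex1, so these counts mainly describe that region. Among the 8 genes that differed between the tissues, those outside the chromosome 9 windows included Fos, Rtp4 and Aldh1a3. With a t distribution of 14 degrees of freedom in place of the normal one, the differences of Fos, Rtp4 and Aldh1a3 did not pass. Fos was at 1.09 ± 0.158 in spleen and -0.11 ± 0.175 in bone marrow in the authors' deposited table (adjusted p of the difference = 0.00101). Rtp4, an interferon-induced chaperone of receptors, was at 0.29 ± 0.175 and -0.92 ± 0.195 in the authors' deposited table (0.00795).

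Between the tissues, interferon-stimulated genes had higher values in spleen and red cell genes lower ones. For 76 interferon-stimulated genes the median log2 fold change was 0.09 in spleen and -0.31 in bone marrow, and the difference was above 0 for 70 of 76 (median 0.35). At an unadjusted p under 0.05 of the difference, 30 were higher in spleen (2.26% of all genes in both tables) and 0 lower (2.58%). Isg15 was at 0.36 ± 0.226 in spleen and -0.75 ± 0.372 in bone marrow, and Irf7 at 0.31 ± 0.271 and -0.66 ± 0.192, in the authors' deposited table. For 41 red cell genes the medians were -0.68 in spleen and 0.23 in bone marrow, the difference was below 0 for 40, and 20 had lower values in spleen with an unadjusted p of the difference under 0.05. Hba-a1 was at -0.68 ± 0.355 in spleen and 0.89 ± 0.303 in bone marrow in the authors' deposited table. Immediate early genes had a median of 0.29 in spleen and 0.07 in bone marrow, with the difference above 0 for 21 of 27. Graft, host and irradiation differ at once between the tissues, so their parts cannot be told apart.

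**Figure D5:**
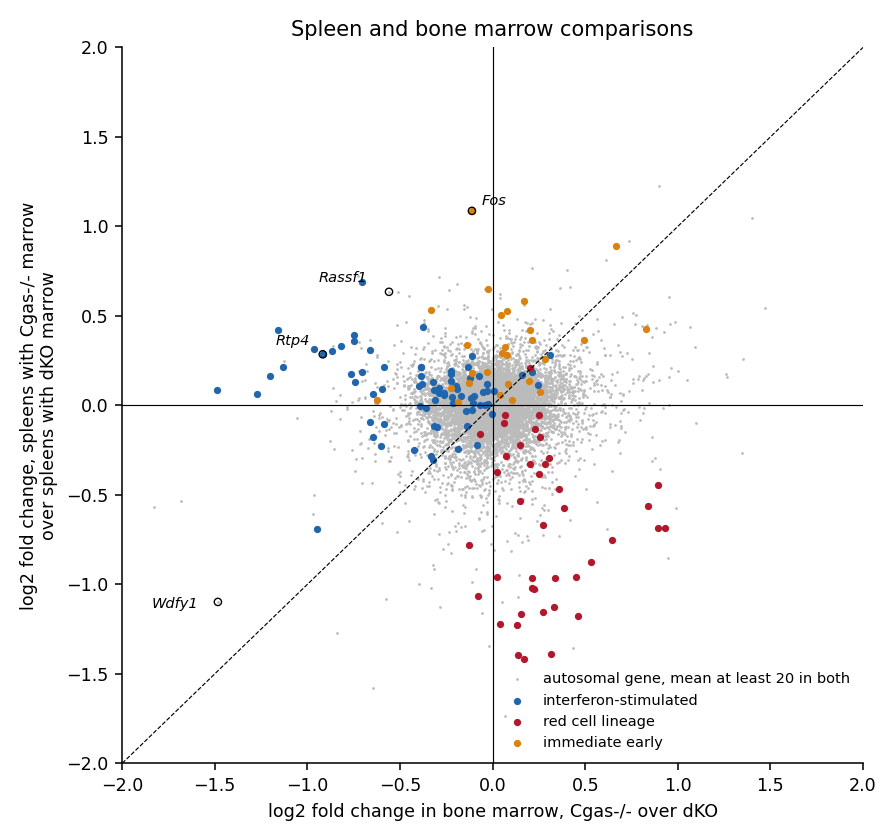
Log2 fold change in spleen (vertical axis) against that in untransplanted bone marrow, Cgas-/- over dKO (horizontal axis). Points are autosomal genes with a mean of at least 20 in both tables and all members of 3 lists, with equal values on the dashed line. Of all autosomal genes listed in both, at any mean, 69 have values beyond the axes. Interferon-stimulated genes lie mostly left of and above the line, red cell genes right of and below it.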

How the data were processed

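RNA from cell suspensions of spleen and of bone marrow was turned into 3' end libraries (Lexogen QuantSeq FWD), per the labels' protocols. Tools listed in the submitters' processing notes are bcl2fastq 1.8.4 and STAR 2.6.1, with Partek, DESeq2 and the mm10 build. The counting rule, annotation, strand, gene filter and DESeq2 version were not given in the sources used here. Each of the 2 deposited tables gives, per the file headers, a mean normalized count per gene over all its libraries (a signal made by the authors with DESeq2). The authors also deposited the log2 fold change with its standard error, a Wald score and a ranking score. The p-value and the adjusted p-value were deposited beside them, the latter reproduced by the Benjamini-Hochberg method over each whole table. Positive values are Cgas-/- over dKO.

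Per-library values were not used here, and every test rests on the deposited errors. Positions came from GENCODE M21 (GRCm38, which is mm10), matching 21678 spleen genes by symbol and 30 by synonym; 122 were unmatched, and 723 on X, Y or the mitochondrial genome were left out. Implied group means, list counts and medians, standard error ratios and motif matches were computed in Python 3.11.15 (pandas 2.3.3, numpy 2.4.6, scipy 1.17.1). The difference between tissues was tested with a two-sided normal test on the difference of log2 fold changes over its standard error. A run on simulated data drew normal noise from the deposited errors. It therefore checked the calculation and could not check whether those errors or the normal distribution hold. The 39 gene lists and the members described were chosen with earlier results of these data known. Genes named were all called genes, the 6 next per direction by p, and up to 4 by p and 2 by level of each list; the rest, including the members given for a family and the immunoglobulin and liver genes, were chosen after their values were seen. A few genes within this rule are not reported here. Alternatives were a t distribution, other gene sets for the adjustment, recentring, a stricter threshold and leaving out genes near Trex1 and Cgas.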

Additional observations from a re-analysis of the deposited data

Results flagged for a closer look

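The log2 fold change in spleen differed from that in untransplanted bone marrow for 8 autosomal genes (two-sided normal test of the difference, Benjamini-Hochberg adjusted over 13379 genes). On chromosome 9 within 10 Mb of Trex1, Rpl29 differed by 4.40 ± 0.383 (adjusted p = 8.06e-27), Tma7 by 2.52 ± 0.208 (2.00e-29), Trex1 by 1.26 ± 0.267 (0.00432) and Rassf1 by 1.19 ± 0.244 (0.00229), each higher in spleen. Trex1 was higher with the Cgas-/- genotype in both tissues, and Rassf1 was at 0.63 ± 0.108 in spleen and -0.56 ± 0.219 in bone marrow in the authors' deposited table. Tma7 averaged 91.4 normalized counts in spleen and 2244 in bone marrow, and Rpl29 144 and 1568, in the authors' deposited table.

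Elsewhere, Fos differed by 1.198 ± 0.236 (adjusted p = 0.00101) and Rtp4 by 1.202 ± 0.262 (0.00795), both higher in spleen. Aldh1a3 differed by -2.56 ± 0.477 (adjusted p = 0.000345), with lower values in both tissues. The part of tissue, transplantation and separate processing in these differences cannot be told apart.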

How the results depend on the processing

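With a t distribution of 8 degrees of freedom in place of the normal one, the 24 autosomal calls fell to 9, 4 higher and 5 lower, and Mb21d1 (log2 fold change -0.92) was no longer past the threshold. With the genes closer than 10 Mb to Trex1 or Cgas left out, 7 calls were left, 1 higher and 6 lower. The 8 genes that differed between tissues fell to 4 without those windows. With a t distribution of 14 degrees of freedom they fell to 2, Tma7 and Rpl29, and Fos, Rtp4 and Aldh1a3 no longer passed. Adjusting over genes with a mean of at least 20 gave 26 calls, with Junb, Egr1 and Jun past the threshold. Adjusting over autosomal genes, and recentring on the median, each gave 24 calls. A threshold of 0.01 gave 22, without Mb21d1 and Ide. Besides Mb21d1, 14 called genes were no longer past the threshold with the t distribution, and none changed sign. Keeping only list members with a mean of at least 20 turned the stroma median from -0.18 to 0.02 (4 of 30 members, among them Cr2 of the B cell lists). The same choice moved the median of first neutrophil granule genes from -0.49 to -0.24, of mature neutrophil genes from -0.13 to -0.04, of plasmacytoid dendritic cell genes from -0.16 to -0.06, of basophil, eosinophil and mast cell genes from -0.15 to -0.09 and of marginal zone macrophage genes from -0.12 to -0.29 (3 of 6 members). No paired analysis was possible because the tables hold no value per library. For the same reason leaving out each replicate, a replicate block, another normalization and no gene filter were not run, so whether 1 spleen carries a result is unknown. The 95% interval lay between -1 and 1 for 5 of 30 stroma, 6 of 19 basophil, eosinophil and mast cell, 9 of 27 endothelial and 14 of 41 red cell genes, the lists with the lowest such shares.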
